A study of Mus musculus with 81 samples.

Results

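The mitochondrial ribosomal proteins described here are the 77 genes whose platform symbol is Mrpl or Mrps followed by a number, each taken from a probe set with 1 symbol and represented by its brightest probe set. They are 77 of 19752 genes measured in bone marrow neutrophils of inbred mouse strains. By textbook assignment 50 of them belong to the large subunit and 26 to the small subunit. These include Mrps30 and Mrps18a, which carry small-subunit names but sit in the large subunit. Mrps36 belongs to neither and is now known as a component of the 2-oxoglutarate dehydrogenase complex. A probe set shared by Mrpl53 and Ccdc142 was not used.

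Mitochondrial ribosomes translate the few messages encoded by mitochondrial DNA, all of which specify subunits of the oxidative phosphorylation complexes. Their RNAs are mitochondrial, but every protein of the particle is encoded in the nucleus, made in the cytosol and imported. Some of these proteins descend from bacterial ribosomal proteins and others were added in mitochondria. Mature neutrophils rely mostly on glycolysis and hold few mitochondria, while their dividing precursors in the marrow hold more.

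Cells carrying CD11b and Ly6G were sorted from the marrow of male mice aged 6 weeks, and RNA of cells pooled from several mice was hybridised to 81 Affymetrix whole-transcript arrays. Titles put the arrays in 40 groups, 1 per strain as titled. The groups were 129S1/SvImJ, A/J, AKR/J, C3H/HeJ, C57BL/10J, C57BL/6J, C57BLKS/J(662), C57L/J (668), CAST/EiJ, CBA/CaJ, CBA/J, CE/J, DDY/JclSidSeyFrkJ, FVB/NJ, JF1/Ms, KK.Cg-Ay/J, LGJ, LP/J(676), MA/MyJ, MRL/MpJ, MSM/Ms, NOD/ShiLtJ, NON/ShiLtJ, NOR/LtJ, NZB/BINJ, NZW/LacJ, P/J, PL/J, PWD/PHJ, RIIIS/J, SEA/GnJ, SJL/J, SM/J, SWR/J and WSB/EiJ, and those titled Balb, BPL, BTBR, C57BR and DBA2. In the last 5 groups the genetic background label named another strain (BTBR T+ tf/J, BALB/cByJ, BPL/1J, CBA/CaJ and DBA/1LacJ, in that order), so they are called by their titles. No treatment is given for any group, and KK.Cg-Ay/J carries the Ay allele of agouti.

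There were 5 arrays of C57BL/6J, 1 of SWR/J, 1 of FVB/NJ and 2 of each of the other 37 groups, and these numbers limit the precision. WSB/EiJ, PWD/PHJ, CAST/EiJ, MSM/Ms and JF1/Ms are called wild-derived and the other 35 classical, from common knowledge of strain names and not from the labels. JF1/Ms is a fancy mouse mostly of Japanese descent. The mean log2 intensity of 10 neutrophil markers ran from 13.28 to 13.44 across strains. Array 1 of NZB/BINJ stood apart, with the lowest correlation to the median array (0.970, against at least 0.979 in the others) and the narrowest interquartile range (2.10 log2 units). The comparison of NZB/BINJ with NZW/LacJ, the counts among strains and the correlations with cell markers are therefore also given without that array or strain. All values below are log2 intensities. They do not allow the level of one gene to be set against that of another, because each probe set has its own brightness. In a sorted bulk sample, fewer cells of a type and less RNA per cell cannot be told apart. Errors are SD over arrays of a strain or SE of a difference, as named. Tests were made with limma, and their p-values were adjusted over all 24922 probe sets (Benjamini-Hochberg), and a gene is said to differ at an adjusted p under 0.05. The series describes the arrays of a strain as biological replicates.

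Promoter windows of 300 bases, mostly upstream of the gene start and reaching a little past it, were listed in RefSeq (GRCm38.p6) for 68 of the 77 members. Windows are shown for 6 members, which were chosen by their results. Mrpl23, Mrps5 and Mrpl34 varied most among strains, and Mrpl57, Mrpl51 and Mrpl36 followed the mean of the other members most closely. All 6 lie on the plus strand, at chr7:142532782-142533081, chr2:127587176-127587475, chr8:71464676-71464975, chr14:57825989-57826288, chr6:125191950-125192249 and chr13:73330759-73331058, and are written 5′ to 3′. Capitals mark the letters CCGGAAG (the core bound by ETS factors such as GABP), GCATGCGC (a half-site of NRF1) or AAGATGGCG (YY1), searched on both strands, so that a match on the other strand reads CTTCCGG, GCGCATGC or CGCCATCTT.
Mrpl23: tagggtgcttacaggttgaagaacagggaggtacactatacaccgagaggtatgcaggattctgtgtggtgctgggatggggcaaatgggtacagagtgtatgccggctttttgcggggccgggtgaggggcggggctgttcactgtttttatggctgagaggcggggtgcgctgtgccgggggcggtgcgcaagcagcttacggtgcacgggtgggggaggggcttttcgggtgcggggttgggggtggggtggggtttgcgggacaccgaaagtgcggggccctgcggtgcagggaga
Mrps5: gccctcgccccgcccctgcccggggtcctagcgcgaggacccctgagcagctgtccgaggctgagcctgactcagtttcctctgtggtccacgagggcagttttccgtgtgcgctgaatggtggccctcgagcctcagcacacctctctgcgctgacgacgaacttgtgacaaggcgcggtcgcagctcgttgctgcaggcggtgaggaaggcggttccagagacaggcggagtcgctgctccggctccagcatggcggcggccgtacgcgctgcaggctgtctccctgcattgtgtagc
Mrpl34: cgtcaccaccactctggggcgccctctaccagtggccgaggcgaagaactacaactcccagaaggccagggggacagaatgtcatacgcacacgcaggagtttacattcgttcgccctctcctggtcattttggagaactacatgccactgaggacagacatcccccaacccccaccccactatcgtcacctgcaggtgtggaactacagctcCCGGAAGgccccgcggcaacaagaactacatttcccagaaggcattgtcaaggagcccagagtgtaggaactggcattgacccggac
Mrpl57: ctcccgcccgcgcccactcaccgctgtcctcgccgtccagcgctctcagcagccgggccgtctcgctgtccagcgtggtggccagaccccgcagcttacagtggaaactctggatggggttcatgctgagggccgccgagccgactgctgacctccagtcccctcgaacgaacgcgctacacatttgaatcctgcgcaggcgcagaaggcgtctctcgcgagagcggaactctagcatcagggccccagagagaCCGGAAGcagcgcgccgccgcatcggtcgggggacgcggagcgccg
Mrpl51: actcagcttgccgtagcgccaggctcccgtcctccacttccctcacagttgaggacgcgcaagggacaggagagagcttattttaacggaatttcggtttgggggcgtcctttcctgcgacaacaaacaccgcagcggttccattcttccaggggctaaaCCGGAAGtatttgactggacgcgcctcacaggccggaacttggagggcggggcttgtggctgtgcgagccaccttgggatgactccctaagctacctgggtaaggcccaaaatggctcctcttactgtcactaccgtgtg
Mrpl36: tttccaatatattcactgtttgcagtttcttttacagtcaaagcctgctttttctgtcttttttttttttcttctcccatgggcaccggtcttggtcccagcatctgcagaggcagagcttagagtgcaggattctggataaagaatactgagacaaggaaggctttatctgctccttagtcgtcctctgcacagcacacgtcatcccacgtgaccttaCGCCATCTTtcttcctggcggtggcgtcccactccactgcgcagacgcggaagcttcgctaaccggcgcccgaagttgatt

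Of these 6 windows, those of Mrpl34, Mrpl57 and Mrpl51 held CCGGAAG, that of Mrpl36 held the YY1 letters, and those of Mrpl23 and Mrps5 held none of the 3. CCGGAAG was found in 25 of the 68 members (36.8%), against 9.93% of the 27025 genes with a window. GCATGCGC was found in 8 members (11.8%, against 3.05%) and AAGATGGCG in 8 (11.8%, against 1.64%). In all, 35 members held at least 1 of the 3, of which 4 held CCGGAAG with the NRF1 letters and 2 held it with the YY1 letters. CCAAT, the letters bound by NF-Y, was found in 26 members (38.2%, against 41.1%), and the letters of a GC box, GGGCGGG, in 29 (42.6%, against 27.9%). These are matches of letters and not measured sites. Members with CCGGAAG had a median SD of strain means of 0.21 and those without it 0.20.

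The first question was how far the genes of this particle differ among strains in neutrophils. In limma's F test over the 40 strain means 55 of the 77 members differed (71.4%), where 56% of all probe sets did. For 28 of them (36.4%, against 24.5% of all probe sets) the strain means also spanned 2-fold or more. Brighter probe sets pass more easily: of the 50 members with a mean log2 of 7 or more, 42 differed and 20 spanned 2-fold, against 84.9% and 42.5% of all probe sets that bright. The shares were 37 of 50 for the large subunit and 17 of 26 for the small subunit. They were 33 of 45 for proteins with a bacterial counterpart and 21 of 31 for those added in mitochondria. The median SD of strain means was 0.20 for the members and 0.14 for all genes, and the median SD between arrays of a strain was 0.16 and 0.14. These medians are not matched for brightness.

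**Figure D1:**
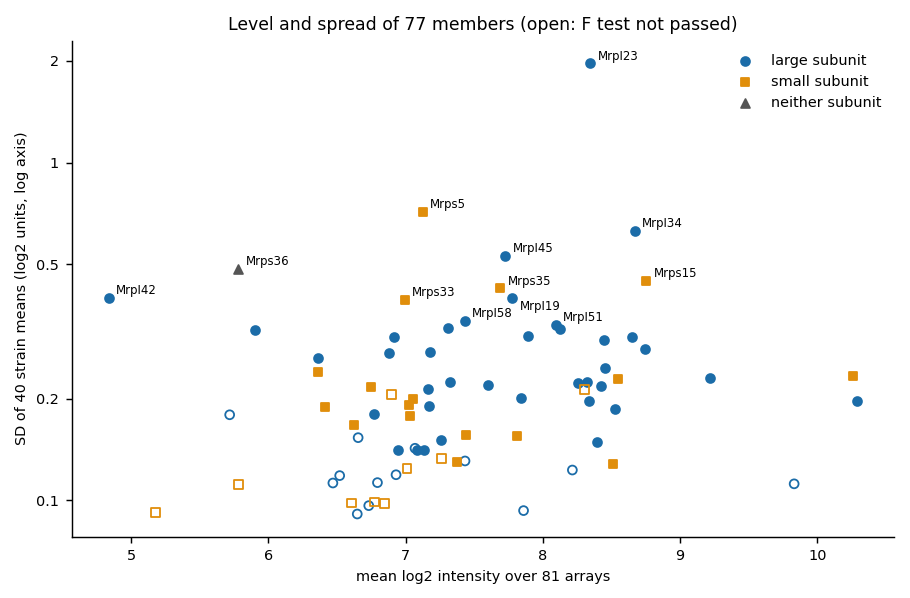
Each point is 1 of the 77 members, with its mean log2 intensity over 81 arrays on the horizontal axis and the SD of its 40 strain means on the vertical log axis; colour and shape give the subunit, and open points did not pass the F test. Mrpl23 stands above all others with an SD of 1.97, Mrps5 follows at 0.72, and most members lie between 0.09 and 0.33.

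Mrpl23, the counterpart of the bacterial protein L23 at the mouth of the exit tunnel, split the strains into a low and a high set. In 25 strains the mean lay between 6.00 ± 0.31 (SD, n = 2) in NZB/BINJ and 7.46 ± 0.20 (SD, n = 2) in NON/ShiLtJ. In the other 15 it lay between 10.27 ± 0.18 (SD, n = 2) in C57L/J (668) and 11.12 ± 0.06 (SD, n = 2) in P/J. No array fell between 7.82 and 10.14, so the 2 sets of strains did not overlap. The SD of strain means was 1.97 (adjusted p = 1.95e-39).

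The 15 strains with high Mrpl23 were C57L/J (668), C57BLKS/J(662), SJL/J, C57BL/10J, titled DBA2, CBA/J, SWR/J, C3H/HeJ, titled BPL, SM/J, C57BL/6J, CBA/CaJ, SEA/GnJ, LGJ and P/J. The 5 arrays of C57BL/6J read 10.67, 10.94, 11.12, 11.11 and 10.75. All 5 wild-derived strains were low, between 6.20 and 6.99. Related strains fell on the same side in the C57BL/6J and C57BL/10J pair and in the CBA pair, all high. NOD/ShiLtJ and NOR/LtJ were both low, as were NZB/BINJ and NZW/LacJ. Other related strains fell on opposite sides. LGJ read 11.05 and its descendant MRL/MpJ 7.22. Of the Swiss strains, SJL/J read 10.46 and SWR/J 10.60 (n = 1), but FVB/NJ read 6.81 (n = 1). Of the 39 steps from a strain to the next in this order, the arrays failed to overlap in 6, 1 of them the gap itself.

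The other probe set of Mrpl23 lists the same accessions and gave the same picture (r = 0.999 over 40 strain means), lowest in NZB/BINJ and highest in P/J. RefSeq also lists a pseudogene, Mrpl23-ps1, on another chromosome, and whether RNA of that locus adds to the signal was not tested. The 3 measured genes on either side of Mrpl23, among them Tnnt3 and Igf2, correlated with it at r between -0.28 and 0.02. Those on either side of the pseudogene correlated at r between -0.43 and 0.31. The genes most like Mrpl23 over the 40 strains, out of 10441 whose highest strain mean reached 7, were Sap30bp (r = 0.57), Dhx16 (0.57), Rbfa (0.56), Supt3 (0.55) and Ptpn11 (0.54), none on its chromosome. Rbfa is an assembly factor of the small mitochondrial subunit, but the other genes named correlated with Mrpl23 about as closely. All were picked as the highest among 10441 genes over 40 strain means. How high r would run by chance in such a search was not tested, so no link to Mrpl23 is drawn from them. Array probes follow the sequence of C57BL/6J, and whether a variant under the probes lowers the signal in the 25 strains was not tested.

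**Figure D2:**
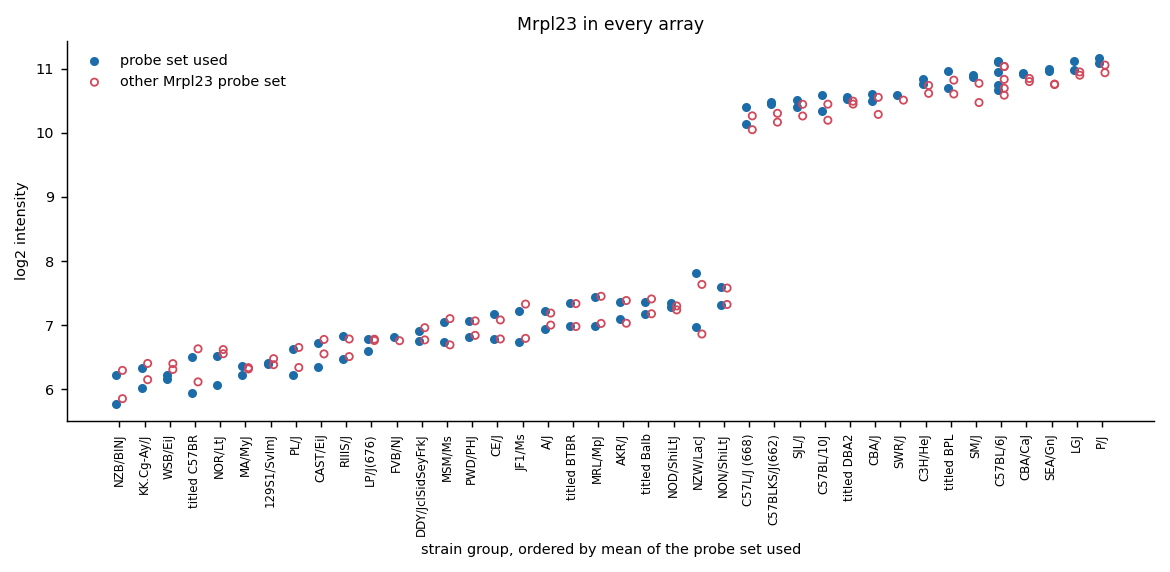
Every array is drawn for both Mrpl23 probe sets, as log2 intensity on the vertical axis, with the 40 strain groups on the horizontal axis in the order of their means. The arrays of 25 strains lie at or below 7.82 and those of 15 strains at or above 10.14 in the probe set used, and the other probe set follows.

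Mrps5, the counterpart of bacterial S5 and part of the subunit that reads the message, was low in most strains and high in a minority. The median strain mean was 6.77. The lowest was KK.Cg-Ay/J at 6.45 ± 0.13 (SD, n = 2). The highest were titled DBA2 at 8.89 ± 0.04, MSM/Ms at 8.84 ± 0.44, CAST/EiJ at 8.71 ± 0.15 and CBA/J at 8.63 ± 0.19 (SD, n = 2 each). C3H/HeJ, PL/J, P/J, RIIIS/J and JF1/Ms followed between 8.20 and 7.66, and PWD/PHJ at 7.34 and MRL/MpJ at 7.20 lay between them and the rest. The SD of strain means was 0.72 (adjusted p = 2.04e-27). The second probe set lists different accessions and correlated at r = 0.978. Of the 5 genes most like Mrps5, Cep152 (r = 0.76), Tmem87b (0.63), Anapc1 (0.62) and Zc3h6 (0.61) lie 9 to 33 measured genes away on its chromosome, and Crybg1 (0.59) lies elsewhere. Its nearest measured neighbours had r between -0.11 and 0.35.

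Mrpl34, the counterpart of the small bacterial protein L34, also split the strains. In 11 strains the mean lay at or above 9.16, namely titled C57BR, C57L/J (668), NON/ShiLtJ, MSM/Ms, DDY/JclSidSeyFrkJ, C57BL/6J, titled BTBR, NOD/ShiLtJ, A/J, NOR/LtJ and C57BL/10J. In the other 29 it lay at or below 8.68, down to 7.78 ± 0.16 (SD, n = 2) in NZB/BINJ. The highest array of the lower set read 8.95 and the lowest of the upper set 8.98, so the arrays of the sets nearly met. The latter was array 1 of C57BL/6J, whose other 4 arrays read 9.84, 9.66, 9.85 and 9.98. The SD of strain means was 0.63 (adjusted p = 7.4e-18). The 5 genes most like it all lie on its chromosome, 7 to 46 measured genes away: Rfxank, Lsm4 and Use1 (r = 0.78 each), Zfp961 (0.77) and Haus8 (0.68).

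Mrpl45, which anchors the particle to the inner membrane, had strain means spread along its range. It ran from 6.82 ± 0.07 in 129S1/SvImJ to 8.69 ± 0.11 in titled Balb (SD, n = 2 each; adjusted p = 7.64e-13). The arrays of titled Balb lay above those of SJL/J, the next strain, which was the only step between adjacent strains without overlap. Its neighbour Npepps, a cytosolic aminopeptidase, correlated with it at r = 0.62. Mrps36 was high in a single strain: WSB/EiJ read 8.67 ± 0.27 (SD, n = 2), and the other 39 strains lay between 5.46 and 6.04 (adjusted p = 1.3e-21). Its second probe set, with the same accessions, gave 8.50 in WSB/EiJ as well (r = 0.984). RefSeq lists 3 pseudogenes of Mrps36, and which locus the probes read was not tested.

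Mrps15, the counterpart of bacterial S15, was lowest in PWD/PHJ at 7.48 ± 0.08, NZB/BINJ at 7.65 ± 0.48 and CAST/EiJ at 7.79 ± 0.24, and highest in NZW/LacJ at 9.72 ± 0.29 (SD, n = 2 each; adjusted p = 8e-11). The 3 low strains lay apart from the other 37 with a gap of 0.50. Mrps35, a protein of the small subunit with no bacterial counterpart, ran from 6.91 (SM/J) to 8.44 (titled Balb; limma adjusted p = 9.9e-17). Its 14 lowest strains lay at or below 7.32, and CAST/EiJ at 7.50 and NZB/BINJ at 7.55 came next. Mrps35 had its widest step, 0.19, just below titled Balb. Its neighbour Klhl42, an adaptor of a ubiquitin ligase, followed it at r = 0.84 over the 40 strains.

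**Figure D3:**
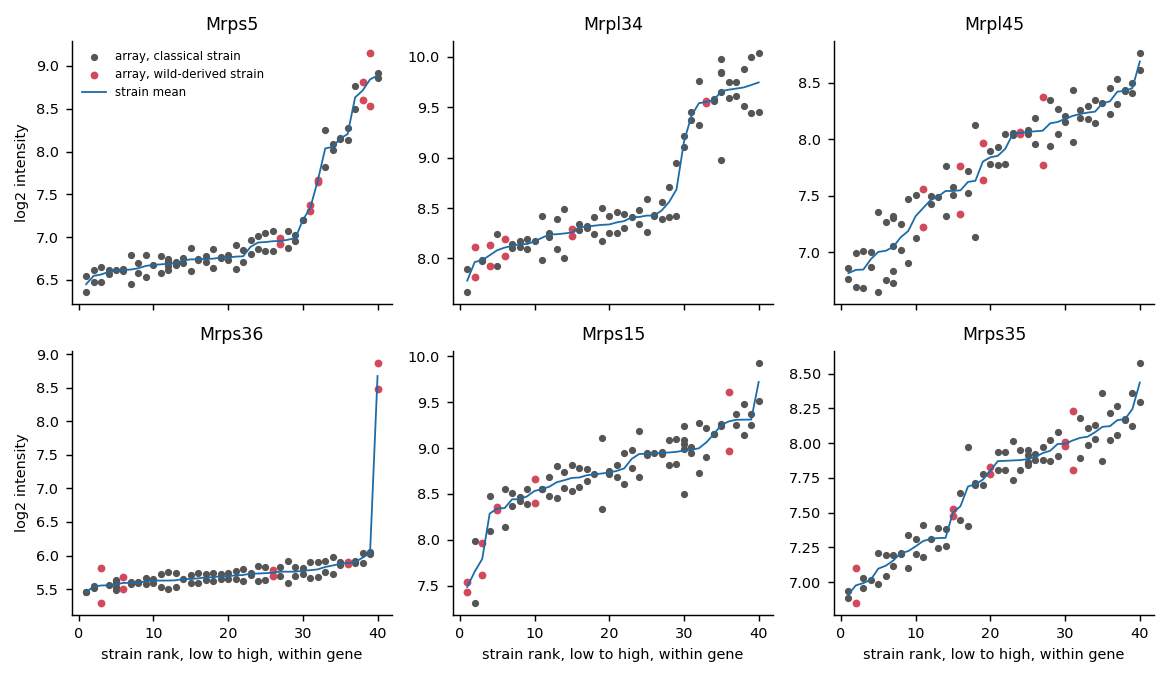
Each panel shows 1 member; points are single arrays (log2 intensity, wild-derived strains in red), the line joins strain means, and the horizontal axis ranks the 40 strains from low to high within that gene. Mrps36 is high in WSB/EiJ (8.67) alone, Mrpl34 steps up after 29 strains, Mrps5 climbs in the last 11 and Mrps15 is low in 3 strains. Mrps35 has 14 strains at or below 7.32, and the strain means of Mrpl45 are spread along its range.

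Of the remaining members in the 12 with the largest spread, Mrpl42, the dimmest member, was at 4.02 in P/J and 5.86 in NON/ShiLtJ (adjusted p = 7.04e-06). Mrpl19, the counterpart of bacterial L19, ran from 6.83 in CAST/EiJ to 8.46 in MRL/MpJ (9.3e-13). Mrps33 lay between 6.06 (KK.Cg-Ay/J) and 7.81 (FVB/NJ, n = 1; limma adjusted p = 1.21e-06), with no step between adjacent strains whose arrays failed to overlap. Mrpl58, known as Ict1, which rescues stalled mitochondrial ribosomes, ran from 6.89 in JF1/Ms to 8.14 in NON/ShiLtJ (1.02e-11) and had its neighbour Atp5h, a subunit of ATP synthase, at r = 0.77. Mrpl51 ran from 7.23 in NZB/BINJ to 8.67 in NZW/LacJ (3.98e-08), and its 2 probe sets, which list different accessions, correlated at r = 0.81. In all, 6 members have a named pseudogene in RefSeq (Mrpl23, Mrpl27, Mrpl48, Mrpl51, Mrps33 and Mrps36), none on the gene's own chromosome. For none of the 6 was it tested which locus the probes read.

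Another 16 members differed with a range of at least 2-fold: Mrpl15, Mrpl20, Mrps30, Mrpl1, Mrpl35, Mrpl48, Mrpl18, Mrpl57, Mrpl3, Mrpl32, Mrpl13, Mrpl24, Mrps17, Mrpl39, Mrps22 and Mrpl9, with ranges of 1.01 to 1.55 log2 units. A further 27 differed by less: Mrps21, Mrpl40, Mrps24, Mrpl41, Mrpl14, Mrpl17, Mrpl30, Mrps26, Mrpl37, Mrpl36, Mrpl33, Mrpl49, Mrps11, Mrps14, Mrpl43, Mrpl54, Mrps10, Mrps31, Mrps9, Mrps23, Mrpl12, Mrpl4, Mrpl46, Mrpl16, Mrpl28, Mrps2 and Mrps16, with ranges of 0.51 to 0.99. The remaining 22 did not pass the test, at adjusted p between 0.0531 and 0.911: Mrps18c, Mrps18b, Mrpl22, Mrpl50, Mrpl47, Mrps7, Mrpl27, Mrps34, Mrps18a, Mrpl44, Mrpl11, Mrpl21, Mrpl2, Mrpl10, Mrps28, Mrps6, Mrps12, Mrps25, Mrpl52, Mrpl55, Mrps27 and Mrpl38.

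The members with the highest mean intensity were Mrpl33 (10.29), Mrps21 (10.26), Mrpl10 (9.83), Mrpl40 (9.22) and Mrps15 (8.75), and those with the lowest were Mrpl42 (4.84), Mrps27 (5.18), Mrpl22 (5.72), Mrps28 (5.78) and Mrps36 (5.78). Among members with a mean of at least 7, the smallest spread of strain means belonged to Mrpl55 (SD 0.09), Mrpl10, the base of the stalk that recruits elongation factors (0.11), Mrps18a (0.12), Mrps34 (0.12) and Mrps16 (0.13). Of these, Mrps16 passed the F test (adjusted p = 0.013, and 0.0635 without NZB/BINJ, where it was highest). Mrpl10 passed it when array 1 of NZB/BINJ was left out (adjusted p = 0.0283, against 0.207). NZB/BINJ was the lowest strain for 16 members, CAST/EiJ for 7, JF1/Ms for 6 and MSM/Ms for 5. KK.Cg-Ay/J and titled C57BR were the lowest for 4 each. FVB/NJ, with its single array, was the highest for 8 and NON/ShiLtJ, NZW/LacJ and titled Balb for 7 each. The outlying array of NZB/BINJ is included. Shares over all probe sets were not counted, so these counts cannot be read as a trait of the members.

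Of the 8 members with a second probe set, those of Mrpl23, Mrps36, Mrps33 and Mrps5 correlated with the first at r of 0.978 to 0.999. The correlation was 0.56 for Mrpl27, 0.53 for Mrpl41 and 0.28 for Mrpl47. The second probe sets of Mrpl27 and Mrpl47 passed the F test (adjusted p = 0.00379 and 0.0431) and the brighter ones used here did not (0.144 and 0.115).

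C57BL/6J, the strain with the most arrays, was then compared with each of the other 39 groups, at an adjusted p under 0.05 and a difference of at least 1. These contrasts share the 5 arrays of C57BL/6J. Of 3003 pairs of a member and a strain, 89 differed (2.96%, against 1.62% over all probe sets), 28 higher and 61 lower than in C57BL/6J, in 11 genes. Mrpl34 was lower in 28 strains and Mrpl23 in 25, by up to 4.91. Mrpl45 was higher in 17 strains and Mrps5 in 8. Mrpl48 and Mrps15 were lower in 3 each, and Mrpl19, Mrpl42, Mrps30, Mrps33 and Mrps36 differed in 1 strain each. Without Mrpl23, Mrps5 and Mrpl34, the 3 members with the largest SD of strain means, 28 of the 89 remained. That is a smaller share than over all probe sets, though the 3 were picked by their spread. C57BL/10J and C57L/J (668) had no member past these limits.

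Of the 4 pairs of related strains, the first, C57BL/10J against C57BL/6J, gave no member that differed in limma (background 2.65%), with 11 of 77 at an unadjusted p under 0.05, where 14.7% of all probe sets were. Among those 11, Mrpl15 was 7.94 in C57BL/10J and 7.49 in C57BL/6J (adjusted p = 0.0855). CBA/J and CBA/CaJ differed in 1 member (background 1.71%). Mrps5 read 8.50 and 8.76 in the arrays of CBA/J and 6.71 and 6.78 in those of CBA/CaJ, a difference of 1.89 ± 0.14 (SE; adjusted p = 3.44e-15).

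NOD/ShiLtJ was higher than NOR/LtJ for 6 members and lower for none (7.79%; background 5.56% in either direction, 3.05% higher and 2.5% lower). Mrpl23 read 7.35 and 7.29 in NOD/ShiLtJ and 6.06 and 6.53 in NOR/LtJ, a difference of 1.03 ± 0.20 (SE; adjusted p = 0.000564) inside the low set. Neither strain has a conflicting label, so grouping all arrays by background label left this difference at 1.03, but the spread pooled over the fit then gave an adjusted p of 0.428. Mrpl15, the counterpart of bacterial L15, differed by 0.85 ± 0.18 (0.00123), Mrpl35 by 0.81 ± 0.17 (0.000889), Mrpl57 by 0.53 ± 0.16 (0.0381), Mrpl37 by 0.52 ± 0.16 (0.0455) and Mrps15 by 0.68 ± 0.22 (SE; adjusted p = 0.0498). Without array 1 of NOD/ShiLtJ, Mrpl15 (adjusted p = 0.0742), Mrpl35 (0.115) and Mrpl57 (0.423) were not called, and Mrpl57 was not called without either array of NOR/LtJ (0.166 and 0.0904). The call of Mrps15 was lost in 6 alternatives, at 0.0615 with the replicate number as a block. It was also lost without either array of NOD/ShiLtJ (differences of 0.62 and 0.74) or of NOR/LtJ (0.51 and 0.85). Omitting single arrays of many other strains ended it too. Mrpl37 was not followed in the alternatives or in the fits that left out an array. Markers of cell state moved with this pair: the cell cycle mean was 8.45 in NOD/ShiLtJ and 6.94 in NOR/LtJ, the azurophil and progenitor mean 7.18 and 6.95, the mature neutrophil mean 11.86 and 12.10, and the megakaryocyte mean 7.86 and 6.60. Their part in the differences was not tested.

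NZB/BINJ and NZW/LacJ differed in 39 members (50.6%; background 45.5%), 33 lower and 6 higher in NZB/BINJ. As shares these are 42.9% and 7.79%, against 21.3% and 24.1% over all probe sets. The median difference was -0.33 over the members and 0.10 over all probe sets. The largest were Mrps15 (7.65 against 9.72; -2.07 ± 0.22), Mrps33 (-1.53 ± 0.25), Mrpl51 (-1.44 ± 0.19), Mrpl23 (-1.39 ± 0.20) and Mrpl32 (-1.31 ± 0.19; SE, adjusted p from 2.19e-10 to 4.67e-06). The difference of Mrpl23 kept its size and was not called when groups followed the background label (adjusted p = 0.097). The 6 higher in NZB/BINJ were all small-subunit genes, as are 26 of the 77 members: Mrps10, Mrps21, Mrps28, Mrps24, Mrps16 and Mrps2, by 0.35 to 0.55. The arrays of this pair also stand apart: array 1 of NZB/BINJ is the outlying array described above, and the mean over all 77 members read 7.24 and 7.14 in NZB/BINJ against 7.64 and 7.42 in NZW/LacJ. Without array 1 of NZB/BINJ, 26 members differed (33.8%, against 17.6% of all probe sets), all of them lower in NZB/BINJ. Mrps15 (-1.73), Mrps33 (-1.58), Mrpl32 (-1.22), Mrpl23 (-1.17) and Mrpl51 (-1.07) were still called (limma adjusted p from 1.78e-06 to 0.00062), and none of the 6 higher genes was (0.122 to 0.461). Without array 1 of NZW/LacJ, 18 members differed (23.4%, against 16.7%), 16 of them lower in NZB/BINJ, and the calls in the 4 pairs fell from 46 to 25. Cell markers moved with this pair as well: the cell cycle mean was 7.66 in NZB/BINJ and 8.38 in NZW/LacJ, the azurophil and progenitor mean 6.94 and 7.20, the B cell mean 6.33 and 5.93, and the mean of the oxidative phosphorylation subunits 8.67 and 9.16. Their part in the differences was not tested.

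The wild-derived strains were compared with the 35 classical strains, with the strain as the replicate. They were higher for 3 members (background 6.64%) and lower for 5 (5.55%), 8 of 77 in all (background 12.2%). These counts are not stable: without array 2 of MSM/Ms they were 5 and 8, and with strain as a random block 5 and 11. The median difference over the 77 members was -0.06, against 0.03 over all genes, and 54 of the members had a lower mean in the wild-derived strains. The share of all genes with a lower mean is not given, so the 54 cannot be read as a trait of the members. Cell markers differed with origin too. The cell cycle mean had a median of 7.39 in the wild-derived strains (7.13 to 7.87) and 8.07 in the classical ones (6.94 to 9.35), and 2 of its 20 genes were lower by the same test. The azurophil and progenitor mean had medians of 6.66 (6.57 to 6.92) and 7.10 (6.85 to 7.61), with 5 of 10 genes lower, among them the stem cell factor receptor Kit by 1.54 (adjusted p = 1.5e-06) and Myb by 0.56 (0.00129), and 1 higher. The neutrophil identity mean had medians of 13.32 and 13.36, with 2 of 10 genes lower, one of them Camp by 0.37 (0.00266). Of the other cell types, 1 erythroid gene (Tfrc) and 1 B cell gene (Cd79b) were lower, and 1 monocyte gene (Csf1r) and 1 eosinophil gene (Siglecf) were higher. Their part in the differences of the members was not tested. Array probes follow the sequence of C57BL/6J. Whether variants under the probes change the signal of these or other members, in wild-derived or other strains, was not tested either.

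The 5 that were lower are all large-subunit proteins. Mrpl43, with no bacterial counterpart, read 7.93 in CAST/EiJ, 8.17 in PWD/PHJ, 8.21 in MSM/Ms, 8.38 in WSB/EiJ and 8.38 in JF1/Ms, against a classical mean of 8.57 ± 0.14 (SD, n = 35). The difference was -0.35 ± 0.07 (SE; adjusted p = 0.000432), and all 5 lay below the classical median. Mrpl36, the counterpart of a very small bacterial protein, was lower by 0.33 ± 0.08 (0.00342) with values of 7.45 to 7.67. Mrpl30 read 7.82 to 8.49 (-0.34 ± 0.09; 0.00817), Mrpl49 read 7.87 to 8.18 (-0.28 ± 0.08; 0.0177) and Mrpl32, a zinc-binding protein matured by the inner-membrane protease, read 6.36 to 6.68 (-0.38 ± 0.11; 0.022; all SE and adjusted p). In each, all 5 lay below the classical median. For Mrpl30, CAST/EiJ at 8.489 was only just below it, next to SM/J at 8.490. Without MSM/Ms, Mrpl30 (0.089) and Mrpl32 (0.106) were not called, Mrpl32 was not called without JF1/Ms (0.0645), and without CAST/EiJ Mrpl49 was not (0.0976).

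Mrpl1, the counterpart of the L1 protein of the bacterial stalk, was higher by 0.44 ± 0.13 (SE; adjusted p = 0.0182), with 4 of the 5 wild-derived means above the classical median and CAST/EiJ, at 7.65, below it. It was not called without MSM/Ms (0.157), PWD/PHJ (0.0952) or JF1/Ms (0.0705). Mrps17 was higher by 0.31 ± 0.10 (0.0378) through CAST/EiJ at 6.99, JF1/Ms at 6.81 and MSM/Ms at 6.80, while PWD/PHJ and WSB/EiJ lay at 6.28 and 6.27. It was not called without CAST/EiJ (0.204), MSM/Ms (0.153) or JF1/Ms (0.152), nor after quantile normalization (0.0708) or with a common array median (0.0687). Mrps5 was higher by 0.88 ± 0.30 (0.0493), with all 5 above the classical median. That call sat at the threshold: it was lost in 6 alternatives (0.0542 to 0.0736) and in 31 of the 40 fits that left out 1 strain, with a difference of 0.65 (0.251) without MSM/Ms. Mrpl23 had the largest difference, -1.77 ± 0.88, and did not pass the test (0.189), the low level being shared by classical strains too.

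**Figure D4:**
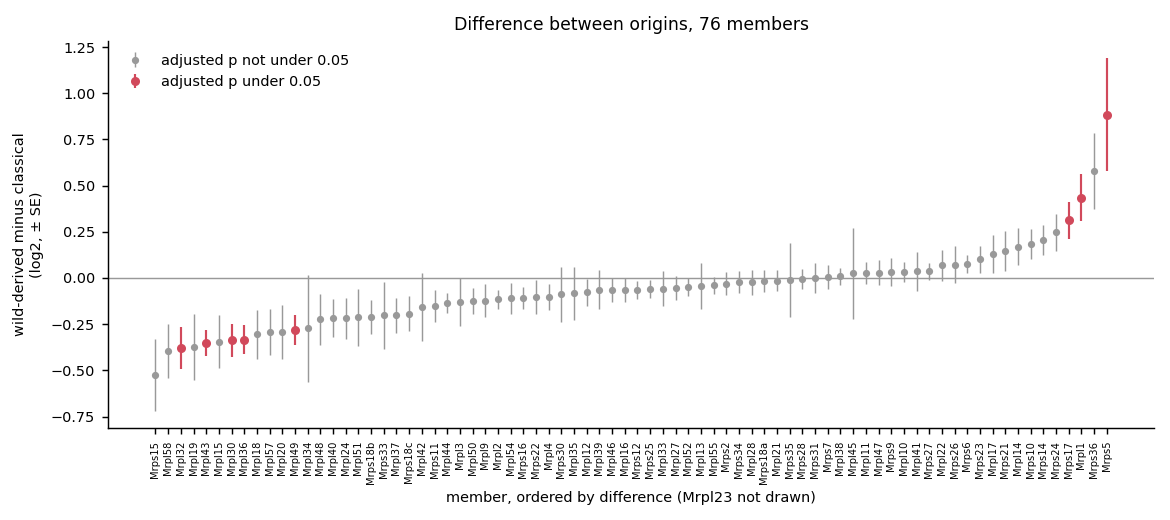
Points give the wild-derived minus classical difference of 76 members in log2 units, with bars of 1 SE, ordered by size, and red marks an adjusted p under 0.05; Mrpl23, at -1.77 with an SE of 0.88, is not drawn. Most members lie below 0, with 5 called on that side and 3 above it.

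The members were then read together. The mean over all 77 was lowest in NZB/BINJ (7.19), followed by KK.Cg-Ay/J (7.24), and highest in C57BL/10J (7.58), with an SD of 0.09 over strains and 0.07 between arrays of a strain. Without the 12 most variable members, the mean of the other 65 ran from 7.27 in NZB/BINJ to 7.57 in MRL/MpJ (SD over strains 0.08). For most pairs of members the correlation over strains was weak: its median was 0.12 (0.12 without NZB/BINJ), against 0.03 (0.01 without NZB/BINJ) for 8457 genes with a mean of at least 7. With the mean of the other members, 18 genes correlated at r over 0.6, led by Mrpl57 (0.86), Mrpl51 (0.81), Mrpl36 (0.75), Mrps33 (0.74) and Mrpl32 (0.72). Another 13 were negative, with Mrps10 (-0.57) and Mrps6 (-0.54) the lowest. Mrpl23, Mrps5 and Mrps35 had r of 0.16, -0.15 and 0.11. Members whose promoter window held CCGGAAG had a median r of 0.31 and those without it 0.36.

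Over the 40 strains the mean of these 65 members followed that of 43 measured oxidative phosphorylation subunits, the products and partners of mitochondrial translation, at r = 0.92 (rho 0.93), and at 0.90 without the 2 farthest strains. It also followed 32 cytosolic ribosomal proteins (r = 0.75, rho 0.82), 5 further mitoribosome genes such as Dap3 and Oxa1l (0.80, rho 0.77) and 15 mitochondrial translation factors (0.75, rho 0.73). The correlation was 0.25 with mitochondrial aminoacyl-tRNA synthetases and 0.14 with regulators such as Gabpa, Nrf1 and Yy1. These means share the arrays and hence their scaling. Deviations of single arrays from their strain mean, over 79 arrays, correlated at r = 0.93 with the oxidative phosphorylation subunits and 0.86 with the cytosolic ribosomal proteins, so the common movement was also present between arrays of the same strain.

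**Figure D5:**
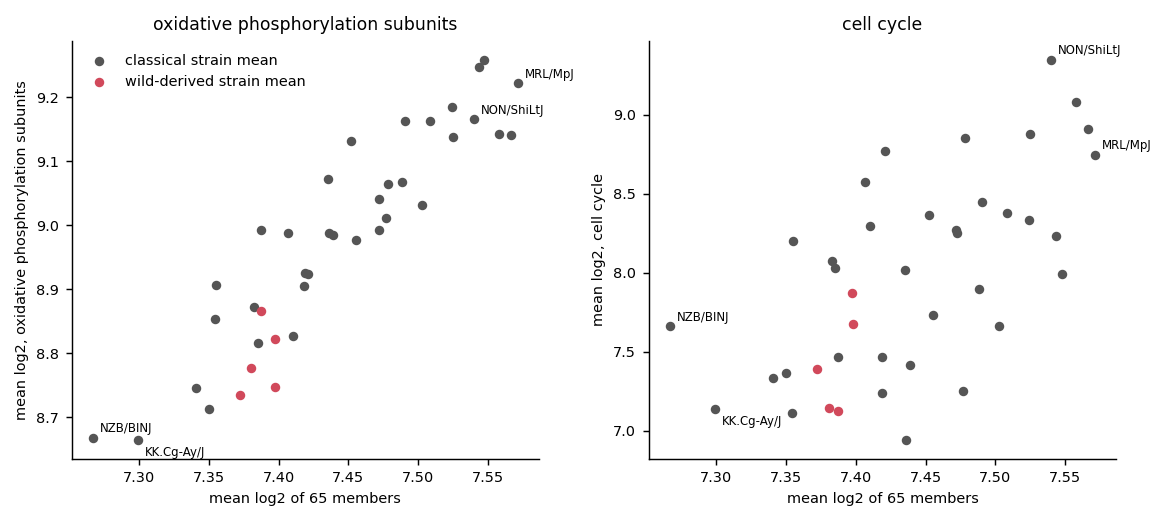
Each point is a strain mean (red for wild-derived), with the mean log2 of 65 members on the horizontal axis and the mean log2 of oxidative phosphorylation subunits (left) or cell cycle genes (right) on the vertical axis. The left panel forms a narrow band (r = 0.92) and the right a wide one (r = 0.64), with NZB/BINJ and KK.Cg-Ay/J at the low end of the members.

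Markers of cell state moved with the members too. The mean of 20 cell cycle genes, carried by dividing precursors, was 6.94 in NOR/LtJ, its lowest strain, and 9.35 in NON/ShiLtJ, its highest, and correlated with the members at r = 0.64 (rho 0.64), and at 0.65 without NZB/BINJ. That of 10 azurophil granule and progenitor genes ran from 6.57 to 7.61 (r = 0.57, rho 0.64; 0.58 without NZB/BINJ), that of 10 mature neutrophil genes from 11.66 to 12.12 (r = -0.30, rho -0.30) and that of the neutrophil identity markers correlated at 0.07 (rho 0.09). Of other cell types, 8 B cell markers had a mean between 5.80 and 6.34 (r = -0.39, and -0.24 without NZB/BINJ, which was near the highest), 5 erythroid markers between 5.94 and 6.47 (r = 0.31, and 0.43 without NZB/BINJ) and 6 basophil and mast cell markers between 5.13 and 5.34 (r = -0.53, and -0.47 without NZB/BINJ). For 9 monocyte and macrophage, 8 T and NK cell, 6 eosinophil and 4 megakaryocyte markers r lay between -0.04 and 0.22, and between -0.03 and 0.29 without NZB/BINJ. The part of any of these in the strain differences of the members was not tested.

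The other genes of mitochondrial translation, from lists drawn up with earlier results known, gave the following counts in the F test, again against 56% of all probe sets. Of 5 mitoribosome genes under other symbols 4 differed, as did 15 of 27 assembly and rRNA modification factors, 14 of 15 translation factors, 11 of 16 synthetases, 5 of 9 genes of mitochondrial DNA transcription and maintenance and 4 of 10 regulators. Among assembly factors Rbfa varied most, from 8.16 in MA/MyJ to 10.86 in NZW/LacJ (SD of strain means 0.74; adjusted p = 1.04e-23), and it was lower in wild-derived strains by 1.16 (0.00653). Among synthetases Yars2, which charges the tyrosine tRNA, ran from 5.98 in NZB/BINJ to 8.54 in JF1/Ms and was higher in wild-derived strains by 1.24 (7.08e-06). Tfb2m, a transcription factor of mitochondrial DNA, ran from 6.42 in NZB/BINJ to 8.51 in MSM/Ms (2.29e-13). Slirp, which stabilises mitochondrial messages, was lower in wild-derived strains by 0.59 (0.00102). Of the oxidative phosphorylation subunits 38 of 43 differed among strains and of the cytosolic ribosomal proteins 31 of 32. Most of these are bright: with a mean of at least 7, 35 of 39 and 28 of 29 differed, against 84.9% of all probe sets that bright. In wild-derived strains 9 of the 43 and 14 of the 32 were lower, against 5.55% of all probe sets, and 1 cytosolic gene, Rpl7, was higher by 1.01 (limma adjusted p = 3.2e-05).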

How the data were processed

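Sorted bone marrow neutrophils of 40 strain groups were measured on 81 Affymetrix whole-transcript arrays. Each deposited value is the intensity of a probe set, taken to be linear because the values ran from 5.30 to 19348 with array medians of 97.2 to 114.8. The authors made them with Affymetrix Power Tools and RMA, per the submitters' processing notes, which give no versions. The genome build behind the probe sets is not given in the sources used here, and no scanner files were used. Values were converted to log2 without further scaling. Gene names came from the platform annotation (1 symbol for 21425 of 24922 probe sets), and the brightest probe set stood for a gene.

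Tests used limma 3.58.1 in R 4.3.3: lmFit and eBayes with 1 mean per title group over all 81 arrays (41 residual and 7.93 prior degrees of freedom) for the F test and the contrasts, and strain means for wild-derived against classical strains. The spread is pooled over groups, so the lone array of a group is assumed to scatter as in other groups. The fit was tested on simulated data in which each probe set had its own independent noise. These data lacked the movement that genes of an array share, so they say nothing of its effect on the tests. Genes described in full were the 12 called members with the largest SD of strain means, every member called between origins, up to 5 called members per related pair, the 5 brightest, the 5 dimmest and the 5 of smallest SD with a mean of at least 7. Neighbours were up to 3 measured genes on each side, from the RefSeq order of GRCm38.p6. Mrpl37 and further members beyond 5 in a pair were named after their values were seen.

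The members, the gene lists, the motif letters and the roles of the proteins were chosen with earlier results of these data known, and support nothing on their own. Correlations over strains are descriptions. Replicate numbers did not pair arrays: deviations of same-numbered arrays had a mean correlation of 0.001 over 595 pairs of strains (range -0.50 to 0.51). Alternatives covered scaling, the variance prior, dim probe sets, the replicate number as a block, the choice of probe set, grouping by background label, groups, arrays and strains left out, an offset of 32 before log2, and strain as a random block.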

Additional observations from a re-analysis of the deposited data

Results flagged for a closer look

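Of 54 groups of 5 values examined for 27 members, 5 held a value far from the other 4. Chance alone marks about 1 in 20 such groups. That rate does not apply here, because many of the members were chosen by the spread or differences of these same strain means. Mrpl36 in array 1 of C57BL/6J read 7.37, while the other 4 arrays of that strain lay between 8.18 and 8.26. Among the 5 wild-derived strain means, Mrpl34 read 9.55 in MSM/Ms, against 7.97 to 8.26 in the others. Mrpl49 read 7.87 in CAST/EiJ, against 8.12 to 8.18. Mrps34 read 6.86 in MSM/Ms, against 7.01 to 7.05. Mrps36 read 8.67 in WSB/EiJ, against 5.55 to 5.89.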

How the results depend on the processing

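No direction was reversed in the alternatives run. The 55 members differing among strains became 52 to 57 under other settings, except 43 when dim probe sets were dropped, which leaves fewer members. The number higher in wild-derived strains, 3 as reported, was 1 with each array set to a common median and 5 with arrays as replicates and strain as a random block, and the number lower, 5 as reported, was 11 with the random block. The cause was not tested. Leaving out each array in turn gave 1 to 5 higher in wild-derived strains (1 without array 1 of C57BLKS/J(662), array 2 of NOD/ShiLtJ or array 2 of NZW/LacJ, 5 without array 2 of MSM/Ms), 5 to 8 lower (8 without array 2 of MSM/Ms), 54 to 59 among strains, 26 to 31 by at least 2-fold, 85 to 93 against C57BL/6J and 25 to 49 in the related pairs, where 25 came without array 1 of NZW/LacJ. For NZB/BINJ against NZW/LacJ alone, leaving out each of their arrays, chosen after seeing the data, gave 18 to 42 against 39 as reported, with 18 without array 1 of NZW/LacJ and 26 without array 1 of NZB/BINJ. Leaving out each strain gave 1 to 4 higher (1 without MSM/Ms) and 4 to 7 lower in wild-derived strains. Setting the arrays to a common median moved an array by at most 0.13 log2 units. Without NZB/BINJ, chosen after seeing the data, 55 members differed among strains, 29 by at least 2-fold, and wild-derived strains were higher for 3 and lower for 6. Without the wild-derived groups, also chosen then, 52 and 24 differed. Since replicate numbers do not pair arrays, the replicate number as a block is only a check: it gave 56 members among strains, 29 by at least 2-fold, 90 against C57BL/6J, 46 in the related pairs, and 3 higher and 5 lower in wild-derived strains, and ended the call of Mrps15 between NOD/ShiLtJ and NOR/LtJ (adjusted p = 0.0615). With 1 to 5 arrays per strain, small differences between strains near the spread of arrays are not resolved, and signal over background was not examined.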
